A study of Mus musculus with 2 samples.

Results

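The major histocompatibility complex (MHC) region of mouse chromosome 17 was examined in a set of Klf4 peaks from mesenteric arcades, the small vessels that feed the gut. The region was taken as positions 33900000 to 37400000 of chromosome 17 in build mm9, leaving out 35630000 to 35660000, where Pou5f1 lies and where the set has 0 peaks. It held 62 of the 7313 Klf4 peaks, counted by peak midpoint. The material came from C57BL/6 mice on chow diet in 2 groups, 1 library of genotype eYFP+/+ Klf4WT/WT and 1 of eYFP+/+ Klf4delta/delta, where smooth muscle cells (SMC) lack Klf4. Both groups carry the eYFP reporter. The sources used here do not give the promoter that drives the SMC deletion, the age of the animals or the number pooled per library. Chromatin of the stromal vascular fraction was precipitated with an antibody against Klf4 and sequenced (ChIP-seq). Per the labels this fraction mixes SMC, macrophages, epithelial and further cells, and a peak cannot be assigned to any of them. The peaks came as 1 list without a genotype, which has no replicate, and the genotypes could not be compared. All intervals below are 95% intervals for counting error only, and neighbouring peaks are not independent, so these intervals are too narrow.

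The MHC, called H-2 in the mouse, groups genes of antigen presentation. Class I molecules, such as those of H2-K1 and H2-D1, show peptides from inside the cell to CD8 T cells, while class II molecules, such as the pair encoded by H2-Aa and H2-Ab1, show peptides taken up from outside to CD4 T cells. H2-K1 lies before the class II genes. Between class II and H2-D1 lies the class III stretch, with complement genes (C2, Cfb, C4b), heat shock genes (Hspa1a, Hspa1b) and the cytokine genes Tnf, Lta and Ltb. Beyond H2-D1 follow the H2-Q, H2-T and H2-M families, non-classical class I genes of more restricted roles. Klf4 is a zinc-finger transcription factor of the Krüppel-like family, which binds GC-rich and CACCC-type sequence, and in vessels it is known for its part in the phenotypic switching of SMC.

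The region was divided at fixed bounds into 4 segments. The H2-K and class II segment ran from 33900000 to 34400000, the class III segment from there to 35300000, the H2-D to Ier3 segment on to 36200000, and the H2-T and H2-M segment on to 37400000. The third also takes in the H2-Q genes and Flot1, a scaffold protein of membrane rafts, beside Ier3, an immediate early response gene. These names say which genes each segment was chosen to cover. An mm9 annotation was not used here, so no peak was placed at a gene and the bounds were not checked against gene positions. In particular, the bound at 34400000 may cut through the class II genes. Values of the class III segment, above all those near its start, may then belong in part to class II. Those of the first segment may not cover all of class II. The other bounds are as uncertain, so any segment may lack genes of its name or hold genes named for another. Values given below by segment are thus for stretches of positions, not for the named genes. In the RefSeq gene table of another assembly, GRCm38.p6, the order along the chromosome was Tapbp, H2-K1, H2-Ab1, Tnf, H2-D1, H2-Q4, Pou5f1, Ier3, Flot1, H2-T23, H2-M3 and H2-M2, which is the order of the segment names but does not check the bounds. That table lists 81 protein-coding genes between H2-K1 and H2-D1, 19 between H2-D1 and Flot1, and 65 between Flot1 and H2-M2, of which 16 are olfactory receptor genes. It holds 50 genes on chromosome 17 whose symbol begins with H2-, 38 of them protein-coding and 12 pseudogenes.

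Some class I genes are close copies of each other, which matters for reading a peak map made from short reads. To show one such pair, the 250 bases before the start of H2-K1, named for the first segment, and of H2-D1, named for the third, are given 5′ to 3′ from RefSeq (GRCm38.p6, H2-K1 on the minus strand and H2-D1 on the plus strand), with matches to CACCC, or to its reverse complement GGGTG, in capitals.
H2-K1: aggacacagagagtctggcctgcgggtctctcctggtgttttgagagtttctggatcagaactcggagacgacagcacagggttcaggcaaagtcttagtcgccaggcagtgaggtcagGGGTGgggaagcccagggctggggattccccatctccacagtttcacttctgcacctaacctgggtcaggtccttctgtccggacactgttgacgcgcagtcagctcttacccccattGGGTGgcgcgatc
H2-D1: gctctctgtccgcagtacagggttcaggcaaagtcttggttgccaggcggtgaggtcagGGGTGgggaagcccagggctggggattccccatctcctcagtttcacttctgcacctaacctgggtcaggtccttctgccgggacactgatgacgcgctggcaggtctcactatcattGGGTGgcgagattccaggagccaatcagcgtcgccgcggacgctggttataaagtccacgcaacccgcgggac
Aligned without end gaps, these promoters matched at 166 of 190 positions (87.4%), and they share an unbroken run of 47 bases that holds 1 of the GGGTG matches. They were among the 3 most alike of 63 pairs of H2 promoters with at least 100 aligned positions, with H2-Q6 and H2-Q7 (97.2%) and H2-M1 and H2-M9 (92.6%). H2-D1 also matched H2-Q4, H2-Q6, H2-Q7 and H2-Q10 at 80.1 to 84.6%, and H2-K1 matched them at 76.4 to 84.0%. The median pair matched at 57.1%, and H2-D1 matched H2-M2 at 57.6%, H2-Q2 at 57.4% and H2-T22 at 53.7%. The likeness thus covers part of the family only, and that part takes in H2-K1, H2-D1 and several H2-Q genes. The sources used here do not say whether reads that fit several copies were kept or dropped, and its part in the peak numbers below was not tested.

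A promoter of 250 bases was at hand for 36 of 46 listed MHC genes, all 46 of which were found on chromosome 17 of the gene table. CACCC or GGGTG occurred in 23 of the 36 (63.9%), against 51.3% of 27025 promoters of all genes. No interval was computed for this share, and the difference was not tested. The motif was found in 4 of 4 promoters of antigen processing genes, among them Tap1, Tapbp and Psmb8, and in 5 of 8 class II promoters. It was found in 5 of 5 H2-Q promoters and 3 of 3 promoters of Tnf, Lta and Ltb. The promoters of H2-Q4, H2-Q6 and H2-Q7 matched each other at 82.9 to 97.2%, so they are not separate observations. Among H2-T promoters 0 of 3 and among H2-M promoters 2 of 7 held the motif. H2-M1 and H2-M9, both without it, matched at 92.6%, so the H2-M promoters are not separate observations either. It was also found in both promoters of the H2-K1 and H2-D1 pair and in 2 of 3 of complement and heat shock genes. The promoter of Ier3 lacked it. These are counts of letters in another assembly than that of the peaks, and a match is not a binding site.

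Klf4 peaks were several times denser in the MHC region than on the rest of chromosome 17. The 62 peaks over 3.47 Mb gave 17.9 peaks per Mb (exact Poisson interval 13.7 to 22.9), against 301 peaks and 3.39 per Mb (3.02 to 3.80) on the rest of the chromosome. The ratio was 5.26 (exact interval 3.94 to 6.94). Against the 18 other autosomes together, which held 2.96 peaks per Mb, it was 6.03 (4.62 to 7.74). The region thus held 17.1% of the peaks of chromosome 17 on 3.76% of its span from first to last peak. Peaks covered 58.5 kb, or 1.69% of the bases of the region, against 0.347% of the rest of the chromosome. The next peaks outside lay 2.65 kb before the lower bound (33896671 to 33897353, score 85.82) and 7.02 kb past the upper bound (37407021 to 37407858, score 71.29). Both lay close to the bounds and scored below the median of the region.

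By value, each of the 4 segments held more peaks per Mb than the rest of the chromosome, and the H2-T and H2-M segment came nearest to it. Density was highest in the H2-K and class II segment, with 18 peaks and 36.0 per Mb (21.3 to 56.9), or 10.6 times the rest of the chromosome (6.20 to 17.1). It was 24.1 per Mb (14.9 to 36.9) in the H2-D to Ier3 segment, with 21 peaks and a ratio of 7.11 (4.34 to 11.1). The class III segment held 16 peaks, 17.8 per Mb (10.2 to 28.9), a ratio of 5.24 (2.96 to 8.65). The intervals of these 3 densities overlap, and none of the 3 ratios between them had an interval that left out 1. The H2-T and H2-M segment, by contrast, held 7 peaks, 5.83 per Mb (2.35 to 12.0), and its ratio of 1.72 (0.685 to 3.58) did not leave out 1. Its density was 0.241 times that of the first 3 segments together (0.0925 to 0.530). This contrast picks out the sparsest of the 4 segments, and neither it nor the ratios between segments were among the planned results.

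**Figure D1:**
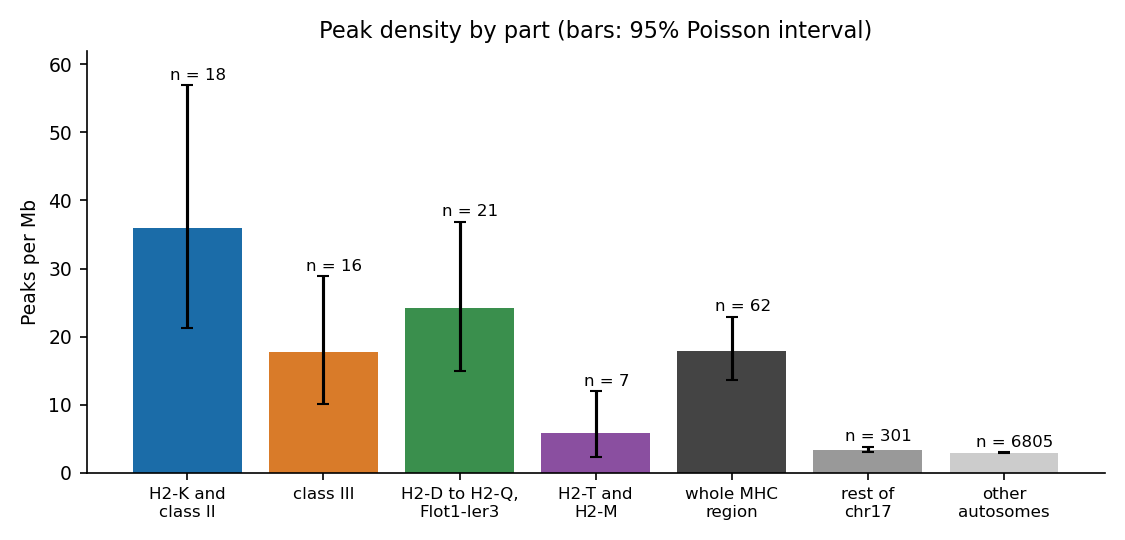
Peaks per Mb in the 4 segments, the whole MHC region, the rest of chromosome 17 and the other autosomes, with exact Poisson 95% intervals and the number of peaks. The first 3 segments stand at 17.8 to 36.0 peaks per Mb, the H2-T and H2-M segment at 5.83 and the rest of the chromosome at 3.39.

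Set among bins of the same size, the MHC region was at or near the top of the genome. On a grid of 3.5 Mb bins lined up with the region, it was 1 of 703 bins and the only bin with at least 62 peaks (0.142% of bins). The median bin held 7 peaks, and the next fullest bin of chromosome 17 held 42. This grid favours the region, because its bounds fit the region and cut other dense stretches at arbitrary places. With windows of the same length started at every peak, an added comparison chosen after seeing the data, the fullest window touching the MHC held 70 peaks and the fullest elsewhere 67, on chromosome 19. On 0.5 Mb bins, the 7 bins of the region held 18, 3, 16, 2, 18, 2 and 3 peaks in order. At least 5 peaks were held by 3 of these 7, against 9.04% of 5078 bins. The bins with 18 peaks tied as the fullest of the grid, and the one with 16 ranked 4. Windows of 0.5 Mb started at every peak reached 20 peaks at the MHC and 21 on chromosome 19, so the rank of the region depends on where the bins begin. The dense bins of the region were thus each followed by a sparse one, and the last 2 bins were both sparse.

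**Figure D2:**
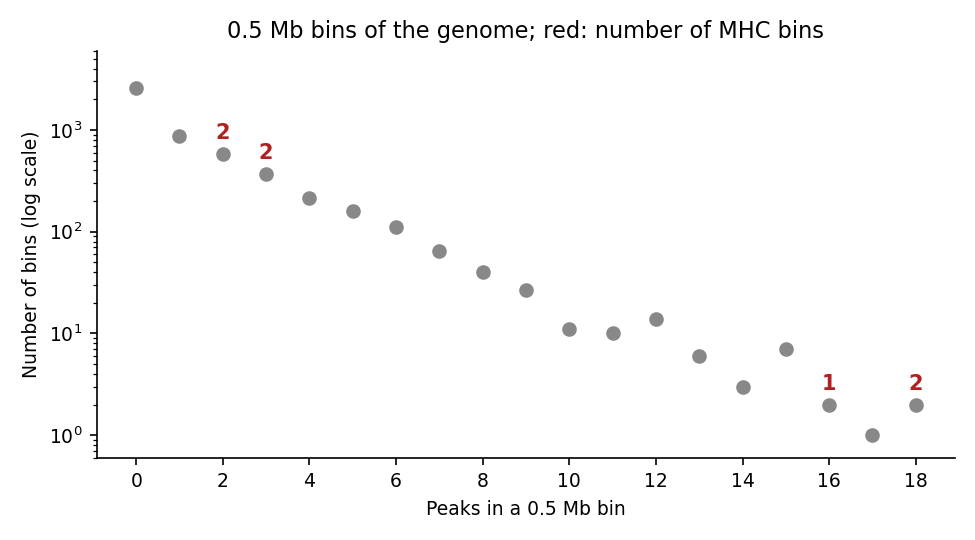
Number of 0.5 Mb bins (log scale) against peaks per bin over all chromosomes, with red numerals for how many of the 7 MHC bins fall at that value. MHC bins sit at 16 and 18 peaks on the right and at 2 and 3 peaks on the left, with none between.

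Klf4 peaks of the region lay mostly in clusters, where a cluster means that 50 kb or less hold at least 3 midpoints, and overlapping runs count as 1. In all, 48 of 62 peaks were in a cluster (77.4%, exact interval 65.0 to 87.1%), against 21.7% of all placed peaks and 23.6% on the rest of chromosome 17. A denser region holds more clusters by this definition, so the share is not separate from the density. Of the 30 clusters of chromosome 17, 10 were in the region. The most similar stretches of the genome were 53 other 0.5 Mb bins with at least 10 peaks, on 17 chromosomes. Such bins were 3 of 7 in the region and 1.1% of all bins. Their median was 12 peaks a bin against 18 in the 3 dense MHC bins, and 67.6% of their peaks were in clusters against 82.7%. That difference was not tested.

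In the H2-K and class II segment, 16 of 18 peaks belonged to 4 clusters, and each of its 0.1 Mb bins held a peak. Over the region 20 of 35 such bins did, against 19.2% of all bins. The first cluster, at 33947539 to 33980790, had 3 peaks with scores from 62.9 to 215.27. The second, at 34046179 to 34092598, held 7 peaks within 46.4 kb. Their scores, in order along the chromosome, were 188.16, 90.38, 98.37, 93.19, 62.19, 128.71 and 103.11, so the first peak scored highest and the fifth lowest. The third cluster, at 34136548 to 34168580, had 3 peaks, all at or above 140.18, and included the second-ranked peak of the segment (34167646 to 34168580, score 242.09). The fourth was the most compact of the region, with 3 peaks in 6.14 kb at 34254451 to 34260594, of which 77.8% was covered by peaks. It began with the highest-scoring peak of the whole region (34254451 to 34256514, 2064 bp, score 285.56) and ended with the widest (34258279 to 34260594, 2316 bp, score 118.87), with a 398 bp peak of score 80.63 between them. Outside clusters lay a 2041 bp peak at 34323559 to 34325599 (score 102.73) and a 992 bp peak at 34334920 to 34335911 (score 137.29).

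The segment from 34400000 to 35300000, named for class III, began with a long empty stretch and filled up towards its end. No peak lay between 34335912 and 34724629, a gap of 388.7 kb that opens at the end of the first segment. A cluster of 3 peaks followed at 34724630 to 34764367, with scores of 102.81, 113.45 and 76.06, and then another gap of 271.4 kb. The remaining 13 peaks of the segment lay past 35035808. Clusters there held 4 peaks at 35088819 to 35138925 (scores 60.73 to 187.99) and 8 peaks over 114.7 kb at 35187053 to 35301745 (scores 67.99 to 236.93), the last of which falls in the next segment. The highest scores of the segment were 236.93 at 35257351 to 35258279, 187.99 at 35118724 to 35119483 and 170.16 at 35188331 to 35189085. The widest peak, 1263 bp at 35187053 to 35188315, scored 95.98 and lay 15 bp before the 170.16 peak, the smallest gap of the region. None of the 16 peaks reached 2000 bp, a width that only 2.73% of all placed peaks reached. Peaks outside clusters were at 35035809 to 35036947 (score 163.2) and 35068550 to 35069342 (score 78.79).

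The H2-D to Ier3 segment held the largest cluster of the region. It had 11 peaks over 97.4 kb at 35958634 to 36056065, and only 2 of the 418 clusters of the list had at least that many. Along the chromosome its scores were 119.91, 67.84, 63.35, 135.96, 79.98, 148.84, 181.73, 180, 109.14, 114.1 and 146.11. Both of the highest peaks of the segment were in its middle, at 36005486 to 36006576 (score 181.73) and 36016664 to 36017315 (score 180), next to the widest peak of the segment (36003153 to 36005387, 2235 bp, score 148.84). A second cluster of 3 peaks at 36105855 to 36118247 held the peak ranked 3 (36105855 to 36106772, score 162.17). In front of these clusters lay the sparse part of the segment. Only 4 peaks, none in a cluster, stood between 35371869 and 35576846, with scores of 106.81, 72.52, 140.43 and 103.06, followed by 381.8 kb without a peak up to 35958633. The remaining pair outside clusters lay at 36168874 to 36169813 (score 109.28) and 36179088 to 36179743 (score 98.76).

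The H2-T and H2-M segment, the longest of the 4, was sparse and its peaks scored low. A peak at 36258744 to 36259463 (score 79.98) was followed by 1 cluster of 3 peaks at 36394041 to 36409423, with scores of 83.94, 132.31 and 113.11. The last of them, 36408418 to 36409423, was the widest of the segment at 1006 bp. Then came the longest empty stretch of the region, 564.7 kb between 36409424 and 36974129. The final 3 peaks, at 36974130 to 36974587, 37094732 to 37095451 and 37139395 to 37139882, scored 68.31, 79.98 and 80.83. In GRCm38.p6 the genes past Flot1 include the H2-M family, with 15 genes of which 12 are protein-coding, and the 16 olfactory receptor genes given above. The median score of the 7 peaks was 80.83, against 114.1 for the 21 peaks of the H2-D to Ier3 segment, 100.7 for class III and 111.0 for the H2-K and class II segment. With 7 peaks, the interval of its median runs from 68.31 to 132.31 and overlaps those of the other 3.

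**Figure D3:**
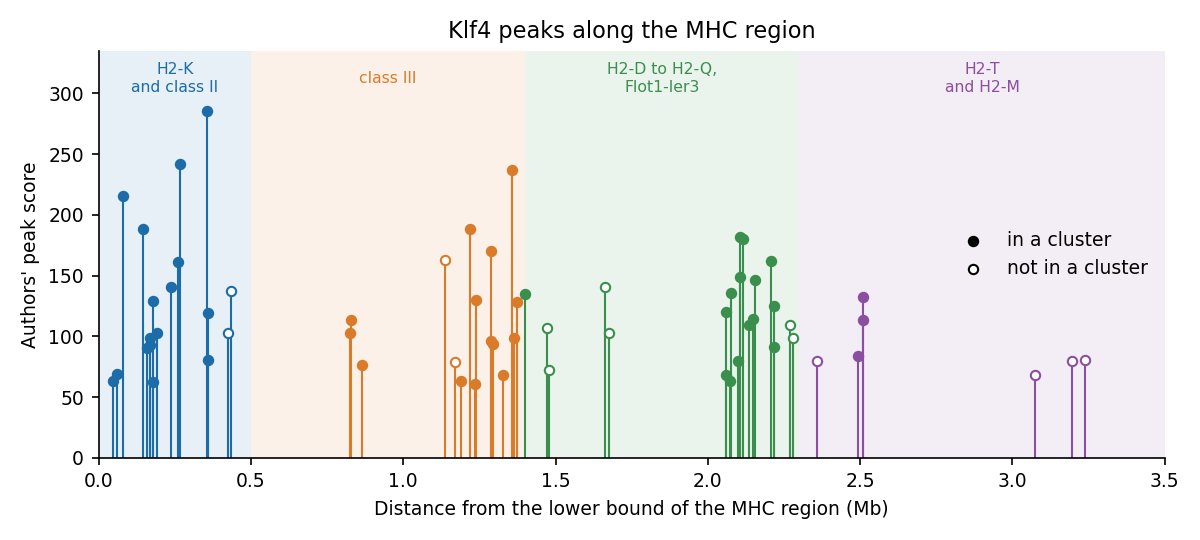
Score of each of the 62 peaks against distance in Mb from the lower bound of the region, with the 4 segments shaded and filled circles for peaks in a cluster. Peaks crowd in the H2-K and class II segment, at the end of class III and in the latter part of the H2-D to Ier3 segment, and the highest score, 285.56, is in the first.

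Neighbouring peaks were closer in the MHC region than elsewhere on the chromosome. The median gap between neighbours was 13.1 kb (quartiles 6.00 and 43.9 kb, 61 gaps), against 87.3 kb (27.6 and 250.3 kb) on the rest of chromosome 17. Gaps under 10 kb made up 41.0% in the region and 12.7% on the rest. A denser region has shorter gaps, so neither these gaps nor the close neighbours below are separate from the density. A neighbour under 1 kb away was found for 20 of 62 peaks (32.3%, exact interval 20.9 to 45.3%), against 16.6% of all placed peaks and 15.9% of those on the rest of the chromosome. These 20 peaks formed 10 pairs, with 3 in the H2-K and class II segment, 2 in class III, 4 in the H2-D to Ier3 segment and 1 in the H2-T and H2-M segment. Separations within the pairs ran from 15 to 510 bp, and 6 were under 250 bp. In the dense bins elsewhere 21.5% of peaks had so close a neighbour, against 34.6% in the dense MHC bins, a difference that was not tested. Joining these pairs left 52 regions, and the density ratio to the rest of the chromosome, joined alike, was then 4.80 (3.497 to 6.47). The 10 joined regions had a median length of 2145 bp, against 808 bp for the 42 single peaks. Whether a pair is 1 broad peak cut by the peak caller or separate peaks cannot be told apart without read coverage.

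**Figure D4:**
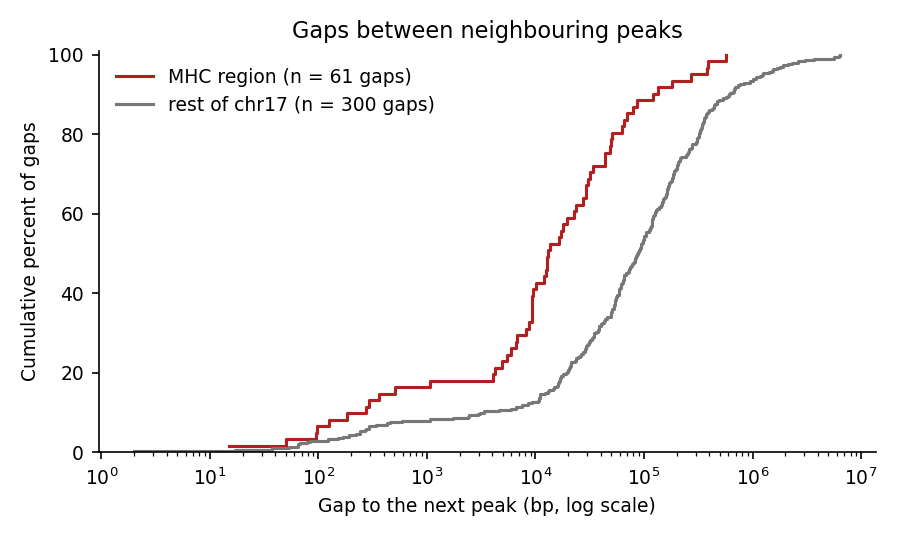
Cumulative percent of gaps between neighbouring peaks (bp, log scale) for 61 gaps within the MHC region and 300 on the rest of chromosome 17. The MHC curve lies to the left, with medians of 13.1 and 87.3 kb, which is not separate from the higher density of the region.

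The median score of the MHC peaks was near that of the list, while their upper score classes and median width were lower by value. The strongest peaks of the list were elsewhere. The score is the value the authors' peak caller gave each peak, and it serves here only to rank peaks within this list. The median score was 108.0 (95.98 to 128.19), against 113.19 (101.81 to 123.12) on the rest of chromosome 17 and 112.0 over all placed peaks. Scores above the list median were held by 29 of 62 peaks (46.8%), against 50% of placed peaks by construction, and scores in the upper quartile by 12 (19.4%), against 25%. Only 3 peaks (4.84%, 1.01 to 13.5%) fell in the upper 10% of scores of the list, against 10% by construction. The highest member, with 285.56, ranked 323 of the list. Low scores were about as common as elsewhere, with 9 of 62 (14.5%) under 70, against 12.3%.

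Widths had a median of 873.5 bp (755 to 950), against 953 bp (915 to 1017) on the rest of the chromosome and 913 bp over all placed peaks. By value the peaks of the region were narrower. The intervals of the region and of the rest of the chromosome overlap, which does not show that the widths are alike. By segment the medians were 959 bp in H2-K and class II, 799.5 bp in class III, 918 bp in H2-D to Ier3 and 720 bp in H2-T and H2-M. Peaks wider than the upper quartile of the list, 1203 bp, numbered 10 (16.1%, 8.02 to 27.7%), against 25% by construction. At the far end, 5 peaks reached 2000 bp (8.06%, 2.67 to 17.8%), against 2.73% of placed peaks, 3 of them in the H2-K and class II segment and 2 in the H2-D to Ier3 segment. Wider peaks tended to score higher (Spearman's rho = 0.40 over 62 peaks, 0.52 over 301 on the rest of the chromosome), a description across peaks of 1 list. Of the 5 widest peaks, only that with score 285.56 was also among the 12 members in the upper quartile of scores. Peaks in clusters had a median score of 113.8 (48 peaks) and those outside 100.7 (14 peaks).

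**Figure D5:**
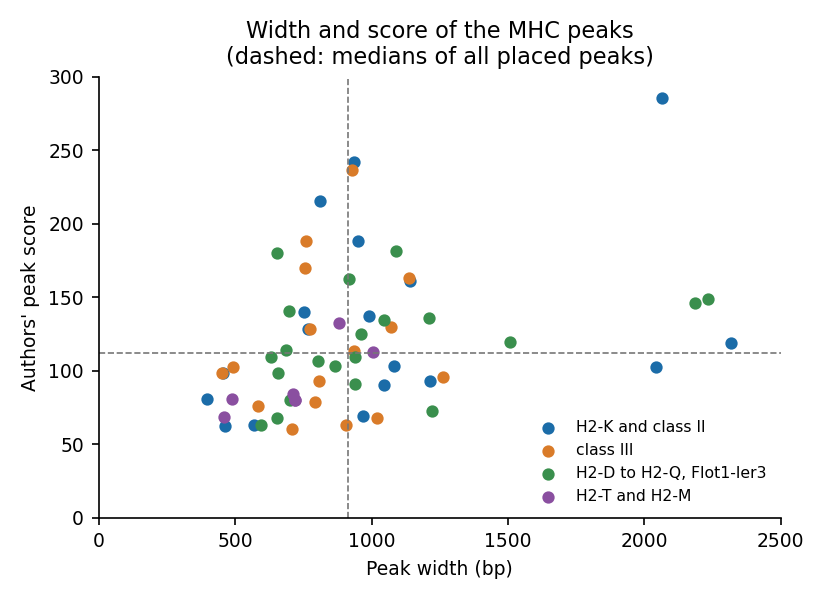
Width in bp against score for the 62 MHC peaks, coloured by segment, with dashed lines at the medians of all placed peaks (913 bp and 112.0). Most points lie under 1300 bp, and 5 stand apart beyond 2000 bp.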

How the data were processed

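Mesenteric arcades were profiled by Klf4 ChIP-seq, with 1 library per genotype. The submitters' processing notes name Bowtie, SAMtools and build mm9 and give no versions. The deposited file is 1 peak list for the series, with chromosome, start, end, name and the score of the authors' peak caller. Peak names in the file begin with MACS. The sources used here do not give the caller's version and threshold, the control, the genotypes used or the read depth.

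Coordinates are 1-based, after a shift of starts by 1 base. Members were peaks with a midpoint in the stated bounds. Rates have exact Poisson intervals, ratios and shares exact (Clopper-Pearson) intervals and medians order-statistic intervals, all at 95%. There were no replicates, so no test was made. The functions were tested on simulated data. For the ratio and median intervals these were independent draws, so the dependence of neighbouring peaks was not covered. Lengths outside the region are spans from first to last peak. The bins of 0.5 Mb and 3.5 Mb were lined up with the region on every chromosome. RefSeq tables (GRCm38.p6) served for gene order and promoters, the first listed per symbol, and coordinates were not moved between builds.

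The region, the segments and the gene lists were chosen with earlier results of these data known. Peaks named were the 3 highest-scoring and the widest per segment, all clusters and the longest empty stretches. Peaks outside clusters and the smallest gap were added after their values were seen. Computations used scipy 1.17.1, pandas 2.3.3 and numpy 2.4.6 under Python 3.11.15, and plots matplotlib 3.10.9.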

Additional observations from a re-analysis of the deposited data

How the results depend on the processing

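The density ratio of the whole region stayed between 4.38 and 6.03 over the 9 alternatives tried, against 5.26 as reported, and all 9 values were above 1. Those alternatives were the upper 50% and 25% of scores, joining of peaks under 1 kb apart, any overlap with the bounds, keeping the Pou5f1 segment, other autosomes or another length as comparison, and bounds moved by 0.1 Mb. Of 68 values recomputed over all results, 57 stayed within the interval of the reported value, 11 moved out of it and 0 reversed. Reversal could be called only for density ratios whose reported interval left out 1. The H2-T and H2-M segment was not among these, and its ratio did fall below 1 with the upper 50% and 25% of scores. Keeping the Pou5f1 segment could not alter widths, scores or shares, as it held 0 peaks. Part of the 57 was thus fixed in advance. Any overlap with the bounds gave the reported values throughout.

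The share of peaks in clusters, 77.4%, became 44.8% with the upper 50% of scores (all placed peaks 6.35%), 0% of 12 peaks with the upper 25% (0.986%), 61.5% with close peaks joined (14.2%), 19.4% with a 10 kb window (2.86%) and 91.9% with a 100 kb window (42.1%). The share with a close neighbour, 32.3%, became 13.8% (all placed peaks 4.49%) and 0% (1.10%) with the upper 50% and 25% of scores and 19.4% (11.4%) for gaps under 250 bp. The density ratio of the H2-T and H2-M segment, 1.72, was 0 with the upper 25% of scores (0 peaks, upper limit 3.999) and 0.960 with the upper 50%. The median score, 108.0, rose by construction to 140.43 and 184.86 in those subsets. In the H2-D to Ier3 segment 3 peaks remained in the upper 25%, and the interval of its ratio of 4.37 then ran from 0.880 to 13.3.

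No paired analysis was possible because the only peak list names no genotype and each group had 1 library. With the read depth not given, a stretch without peaks does not show absent binding.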

Other observations

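Of the 62 MHC peaks, 14 (22.6%, exact interval 12.9 to 34.97%) had a score that equals, to 2 decimals, the Poisson probability, as minus 10 times its log10, of more than a whole number of events at a background of exactly 1, 2, 3 or 4, against 20.9% of all placed peaks. The score 79.98 was the only one that several MHC peaks shared. It was held by 3 of them, 1 in the H2-D to Ier3 segment and 2 in the H2-T and H2-M segment. The share of all placed peaks with this score was not counted. In the dense bins elsewhere the lower quartile of scores was also 79.98, so the value is not particular to the region.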
